A study of Mus musculus with 11 samples.

Results

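Neuropeptides and their receptors were followed in the transcriptome of GFP-positive cells sorted from the V-SVZ, the ventricular-subventricular zone that lines the lateral ventricles and gives rise to neurons and glia. The mice were of strain CD1/Swiss and of age P2. The set held 41 genes of the 39179 in the count table: 14 peptide precursors, 26 receptors and Trhde, which encodes an ectoenzyme that degrades thyrotropin-releasing hormone (TRH). The members were chosen by gene family, with Trhde added, and earlier results of these data were known at that point. Sst, Npy, Cort, Penk, Pdyn and Tac1 were left out. All 41 symbols were found in the table, each with 1 identifier, and 29 had a mean of at least 0.5 CPM, counts scaled to a common library size, over the 11 libraries and were tested. Of the 12 others, Oprk1 lay nearest the limit with 0.449 CPM, and Cck, with 0.543 CPM, was the lowest member tested. The filter does not use the groups, but Gal and Sstr3 passed it with a mean under 0.5 CPM by library totals in 1 group.

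The 6 control libraries came from animals labelled Gsh2-Cre; Zeb2fl/wt, with 1 floxed and 1 wild-type allele of Zeb2, which encodes a repressor protein with zinc fingers. The 5 mutant libraries came from animals labelled Gsh2-Cre; Zeb2fl/ko, with 1 floxed and 1 null allele. Both groups carry Gsh2-Cre, active in ventral forebrain progenitors, and the RCE reporter, so Cre can delete the floxed allele in control cells as well. By design control cells would retain 1 Zeb2 allele and mutant cells no functional one, while cells outside the Cre lineage of the mutants are heterozygous. No label ties a library to its own animal, so the p-values describe variation among libraries.

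Libraries held 6833981 to 13073505 counts, and 3 counts, taken as the detection floor for counting error only, correspond to 0.225 to 0.445 CPM. The gene-level count of Zeb2 (controls 1650 to 3277, libraries labelled mutant 2573 to 4754) covers the whole gene and does not check the genotype. No counts of 4 Y-linked genes were found in the 5 mutant libraries and in controls 4 and 5, whereas controls 1, 2, 3 and 6 held 763 to 2716 of them. The groups therefore differ in sex as well, and values among female libraries (2 controls, 5 mutants) are given beside each call of a member. Calls of genes outside the set are given without such values, so sex and genotype are not separated there. GABAergic neuron markers summed to 2477 to 3520 CPM in the controls and 3206 to 3992 CPM in the mutants. Otp, Nr5a1 and Hmx3 of the hypothalamic list, a source of many of these peptides in the brain, had no counts in any library, and all 11 genes of that list summed to at most 2.88 CPM.

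Neuropeptides are cut from larger precursor proteins in dense-core vesicles and released from neurons together with classical transmitters. They act over longer distances and times than those transmitters, mostly through receptors coupled to G proteins: somatostatin, neuropeptide Y and opioid receptors couple to Gi and lower cyclic AMP, whereas receptors for vasoactive intestinal peptide (VIP), PACAP and corticotropin-releasing hormone (CRH) couple to Gs and raise it. In the forebrain some cortical and striatal interneuron classes are recognised by a peptide they make, and the PACAP receptor is known from neural progenitors of the germinal zones.

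The stretches upstream of every annotated transcription start are shown for the 4 members with the largest called increases and for Nts, the only member that fell, since the comparison between genotypes turns on these genes. They are RefSeq promoter windows (build GRCm38.p6), cut so that no annotated transcript is included, and 31 of the 41 members had such a window. Capitals mark TGACGTCA, the cAMP response element, or CAGGTG, the reverse complement of CACCTG, the E-box core bound by ZEB factors. The stretches are chr11:113619077-113619326 on the plus strand for Sstr2, and on the minus strand chr10:114802308-114802552 for Trhde, chr3:82548086-82548335 for Npy2r, chr1:79440121-79440276 for Scg2 and chr10:102490487-102490668 for Nts. A further 28 bases of Scg2, chr1:79440077-79440104, lie upstream of its RefSeq start but inside a longer GENCODE transcript.
Sstr2: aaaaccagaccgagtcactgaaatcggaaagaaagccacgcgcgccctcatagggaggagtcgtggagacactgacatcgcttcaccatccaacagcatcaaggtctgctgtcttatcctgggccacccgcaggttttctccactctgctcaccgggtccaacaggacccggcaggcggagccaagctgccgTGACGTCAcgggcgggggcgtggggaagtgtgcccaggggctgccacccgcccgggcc
Trhde: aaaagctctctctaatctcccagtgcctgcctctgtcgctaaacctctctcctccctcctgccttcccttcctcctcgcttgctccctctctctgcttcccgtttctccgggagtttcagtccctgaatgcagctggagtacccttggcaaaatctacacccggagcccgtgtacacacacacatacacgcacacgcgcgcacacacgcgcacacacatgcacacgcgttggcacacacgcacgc
Npy2r: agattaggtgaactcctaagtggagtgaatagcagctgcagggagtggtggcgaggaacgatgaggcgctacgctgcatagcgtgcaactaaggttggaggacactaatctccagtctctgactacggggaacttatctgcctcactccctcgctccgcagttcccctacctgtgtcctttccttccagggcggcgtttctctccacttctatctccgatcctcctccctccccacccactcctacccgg
Scg2: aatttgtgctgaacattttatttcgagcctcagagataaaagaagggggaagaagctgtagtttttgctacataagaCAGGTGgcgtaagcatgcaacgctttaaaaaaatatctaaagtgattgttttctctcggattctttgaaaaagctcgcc
Scg2 element: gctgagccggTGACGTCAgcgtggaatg
Nts: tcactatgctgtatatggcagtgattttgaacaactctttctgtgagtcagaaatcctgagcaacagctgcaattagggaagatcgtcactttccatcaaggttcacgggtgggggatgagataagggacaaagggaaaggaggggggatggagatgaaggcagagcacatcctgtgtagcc

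In Sstr2 and Scg2 the TGACGTCA match begins 58 and 68 bases before the RefSeq start. The same 8 letters, which are their own reverse complement, occur in 1.79% of all 32851 windows of 300 bases. Per gene they occur in 2.03% of all 27025 genes and in 3 of 31 members (9.68%), the other one being Cartpt. CACCTG on either strand occurs in 20.2% of all windows; per gene, 9 of 31 members (29.0%) and 22.6% of all 27025 genes hold it. Of the 6 members called below, Scg2 alone had it in its window. In the printed stretches the matches do not overlap, and a match describes letters only.

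Between the groups 6 members changed, 5 of them higher and 1 lower in the mutants. Trhde rose about 16.7-fold and the receptor genes Npy2r, Sstr2 and Oprl1 rose 12.5-fold, 4.74-fold and 1.59-fold as ratios of group means. The granin precursor gene Scg2 rose 2.02-fold, and the neurotensin gene Nts was 3.22-fold lower in the mutants. These 6 of 29 tested members compare with 4.14% of the 15227 genes tested (2.52% higher and 1.62% lower, edgeR's quasi-likelihood test at an adjusted p of 0.05). Because the members were chosen with earlier results of these data known, these shares do not test the set. The median log2 fold change of the 29 was 0.23, against -0.019 over all genes. By role, 1 of 7 tested precursors rose and 1 fell, 3 of 21 tested receptors rose and none fell, and the enzyme rose.

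**Figure D1:**
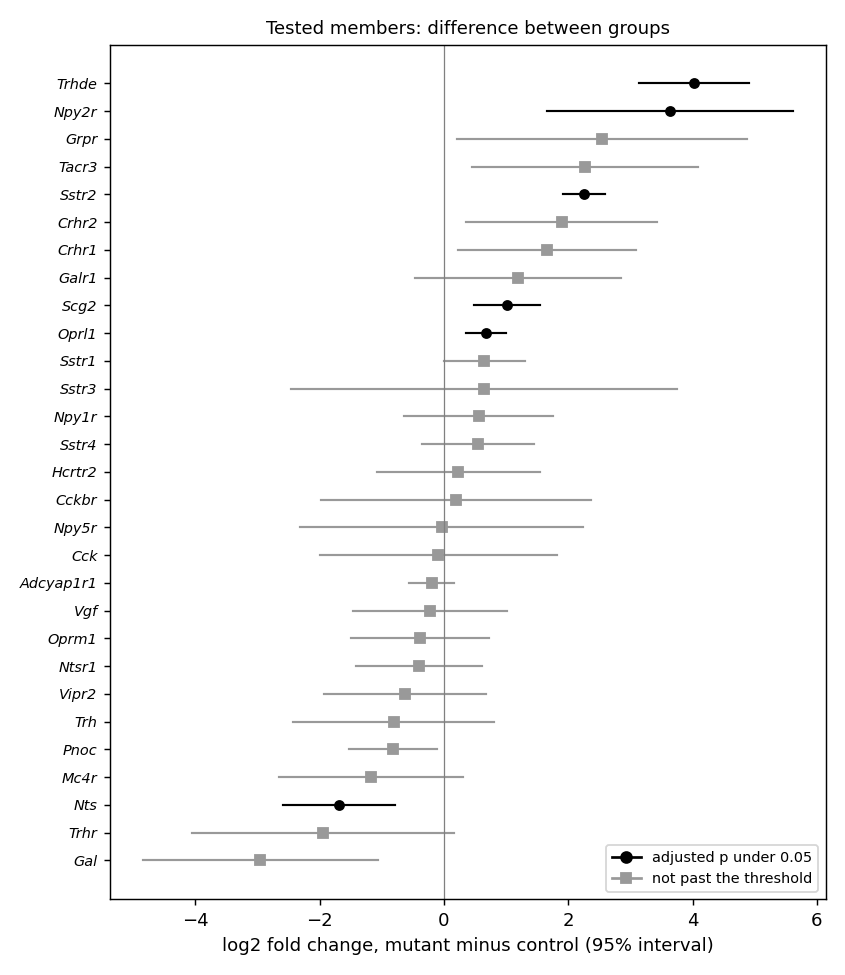
Log2 fold change (mutant minus control, horizontal axis) of the 29 tested members with its 95% interval from edgeR's quasi-likelihood fit. Black circles mark the 6 members past an adjusted p of 0.05 and grey squares the other 23; the intervals of Trhde and Sstr2 lie farthest from 0 relative to their width, and those of low genes such as Sstr3 and Grpr are wide.

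Among the precursors and processing-related members, Trhde (ENSMUSG00000050663, chromosome 10, 114398823 to 114802307, minus strand, GRCm38) was low in the controls. It had no counts in control 1, a median of 3.54 CPM and at most 4.34 CPM in the controls, and 46.5, 53.5, 51.4, 51.8 and 59.1 CPM in mutants 1 to 5. Every mutant library lay above every control, and the coefficient of variation among the mutants was 8.66%. The group means were 3.14 ± 1.59 CPM (SD, n = 6) and 52.5 ± 4.54 CPM (SD, n = 5), a log2 fold change of 4.03 (SE 0.415, edgeR adjusted p = 5.64e-05). Trhde kept its call in all 11 fits that left out 1 library (3.79 to 4.14) and among female libraries, where it was 3.82 (adjusted p = 0.000186).

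Trh, the precursor gene of the enzyme's substrate, did not pass the test. It ranged from 0 to 4.82 CPM in the controls (mean 2.84), and stood at 1.46, 1.80, 2.07, 0.300 and 2.49 CPM in mutants 1 to 5 (mean 1.62). The groups overlapped (log2 fold change -0.81, 95% interval -2.42 to 0.80, edgeR adjusted p = 0.657). The TRH receptor gene Trhr was at most 5.53 CPM in 5 of the controls and 15.4 CPM in control 5, and 0 to 2.69 CPM in the mutants, with means of 4.65 and 1.197 CPM (-1.95, SE 0.984, edgeR adjusted p = 0.342). Thus of these 3 genes of TRH signalling only the gene of the degrading enzyme was called.

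Scg2 (chromosome 1, 79434669 to 79440120), which encodes secretogranin II, a granin of dense-core vesicles and the precursor of secretoneurin, had the highest mean level per length of the 14 precursors in both groups, 10.1 and 20.4 CPM per kb of exon. The controls spanned 11.7 to 41.9 CPM with a median of 25.1, and mutants 1 to 5 had 55.5, 51, 62.0, 50.8 and 37.8 CPM. Mutant 5 lay inside the control range, below control 5, and the other 4 mutants lay above it. The means were 25.5 ± 10.01 CPM (SD, n = 6) and 51.4 ± 8.85 CPM (SD, n = 5), with a log2 fold change of 1.01 (SE 0.248, edgeR adjusted p = 0.0340). This call was lost in 7 of the 11 fits without 1 library, those without control 2, 3 or 4 or mutant 1, 2, 3 or 4 (0.86 to 1.21 over all 11), and among female libraries (0.74, adjusted p = 0.346).

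Nts (chromosome 10, 102481756 to 102490486), the precursor gene of neurotensin, a peptide that modulates dopamine signalling in the striatum, was the only member to fall. The controls spanned 6.01 to 15.8 CPM with a median of 10.9, and mutants 1 to 5 had 2.23, 6.5, 2.40, 1.05 and 3.90 CPM. Mutant 2 alone reached into the control range, above control 3 and just under control 1. The log2 fold change was -1.69 (SE 0.422, edgeR adjusted p = 0.0363), and -2.10 among female libraries (adjusted p = 0.113). Without control 2, 4, 5 or 6, or mutant 1, 3, 4 or 5, the call was lost (-2.11 to -1.46 over all 11). Its receptor gene Ntsr1 did not pass, at 2.72 to 10.4 CPM in the controls and 2.15 to 9.62 CPM in the mutants, with mutant 5 highest and means of 5.59 and 4.22 CPM (-0.40, edgeR adjusted p = 0.742).

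Gal, the precursor gene of galanin, had the lowest log2 fold change of the set, -2.95 (SE 0.886), but missed the threshold (edgeR adjusted p = 0.0841). Controls 1 to 5 stood between 1.19 and 6.59 CPM, control 6 had no counts, and the mutants had 0.691, 0.400, 0.109, 0.375 and 0.332 CPM in order of their numbers. Control 6 alone made the groups overlap, and the means were 3.06 and 0.381 CPM. Without it the log2 fold change was -3.22 (edgeR adjusted p = 0.00803), and among female libraries, where the controls held 3.88 and 6.59 CPM, it was -3.71 (adjusted p = 0.0281). DESeq2 called it (-2.99, adjusted p = 0.0110), and limma-voom did not (-1.96, adjusted p = 0.519). Nor was it called with the Y-linked covariate (-3.54, edgeR adjusted p = 0.151) or in the 10 other fits without 1 library (adjusted p up to 0.188). Galr1, a galanin receptor gene, was 0 to 2.97 CPM in the controls and 1.33 to 6.22 CPM in the mutants, with means of 1.18 and 2.74 CPM (1.19, edgeR adjusted p = 0.485).

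The other tested precursors did not pass. Pnoc, which encodes prepronociceptin, the precursor of the ligand of the Oprl1 receptor, stood at 34.1 CPM in control 1 and 9.72 to 16.4 CPM in the other controls (median of all 12.8). In mutants 1 to 5 it stood at 13.12, 10.9, 7.31, 8.09 and 6.47 CPM, so 3 mutants lay under the lowest control (log2 fold change -0.81, SE 0.331, edgeR adjusted p = 0.22). Vgf, a precursor gene that neurotrophins induce, was 0.297 to 1.67 CPM in the controls (mean 1.03) and 0.5 to 1.16 CPM in the mutants (mean 0.88). Cck, the cholecystokinin gene of a class of cortical interneurons, was 0 to 1.48 CPM and 0.150 to 1.09 CPM with means of 0.564 and 0.525 CPM, near the floor in both groups.

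**Figure D2:**
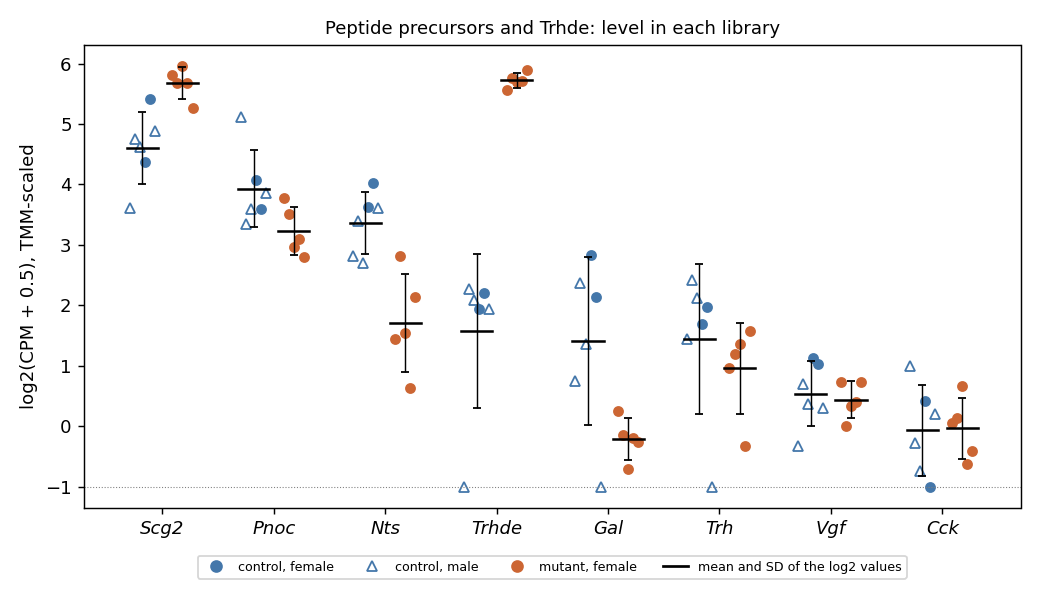
Level of the 7 tested precursors and Trhde in each library, as log2(CPM + 0.5) on the vertical axis; the dotted line marks 0 counts. Filled circles are female and open triangles male libraries, blue controls and orange mutants, with the mean and SD of the log2 values in black; the Trhde values of the 5 mutants sit together above all controls, and control 1 is at 0 for Trhde and control 6 for Gal and Trh.

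The 7 precursors under the filter were scarce throughout. Vip, whose peptide marks a class of cortical interneurons, had 5 counts in control 1 and 26 in control 4 and none elsewhere. Crh had 8, 1 and 2 counts in controls 1, 5 and 6, and Adcyap1, the PACAP gene, 11 counts in control 2 alone; neither was found in a mutant. Tac2, the neurokinin B gene, had 5, 6, 4, 2 and 7 counts in mutants 1 to 5 and 3 and 1 counts in controls 3 and 5, so at least 3 counts were found in 4 of 5 mutants and 1 of 6 controls. Grp reached 30 counts in mutant 4 and at most 9 elsewhere, while Cartpt and Pthlh never exceeded 6 and 3 counts. None of these 7 was called in an edgeR fit of every gene with at least 1 count.

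Sstr2 (ENSMUSG00000047904, chromosome 11, 113619342 to 113626028, plus strand), which encodes the somatostatin receptor of subtype 2, had the smallest adjusted p of the set. The controls spanned 31.1 to 60.7 CPM with a median of 43.2, and mutants 1 to 5 had 193, 209, 243, 186 and 203 CPM. The lowest mutant was well above the highest control, control 1. Group means were 43.7 ± 10.5 CPM (SD, n = 6) and 207 ± 22.0 CPM (SD, n = 5), a log2 fold change of 2.25 (SE 0.158, edgeR adjusted p = 1.13e-06). All 11 fits without 1 library kept the call (2.17 to 2.36), as did the female libraries (2.37, adjusted p = 0.00032).

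The other somatostatin receptor genes did not pass the test. Sstr1 spanned 8.05 to 14.8 CPM with a median of 9.29 in the controls and had 17.0, 6.70, 21.1, 25.7 and 14.7 CPM in mutants 1 to 5, with mutant 2 under every control and mutants 1, 3 and 4 above them (log2 fold change 0.65, 95% interval -0.00025 to 1.30, edgeR adjusted p = 0.298). Sstr4 spanned 1.66 to 6.31 CPM in the controls and 2.30 to 7.57 CPM in the mutants, with means of 3.44 and 5.02 CPM (0.55, edgeR adjusted p = 0.568). Sstr3 had counts in only 2 libraries of each group, with means of 0.504 and 0.795 CPM. On a per-length scale (CPM per kb of merged exon) Sstr2 made up 63.3% to 80.0% of the summed level of these 4 receptors in the control libraries, and 82.8% to 95.2% in mutant libraries.

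Of the neuropeptide Y receptor genes, Npy2r (chromosome 3, 82538383 to 82548084), which encodes the presynaptic Y2 autoreceptor, rose. It had no counts in controls 2, 4 and 6, stood at 0.148 CPM in control 1 and at 4.63 and 3.88 CPM in controls 3 and 5, and reached 11.97, 26.6, 24.9, 12.1 and 14.9 CPM in mutants 1 to 5. All mutants lay above all controls (log2 fold change 3.64, SE 0.925, edgeR adjusted p = 0.0389). The call was lost without control 1, 2 or 4 or any single mutant (3.36 to 4.51 over the 11 fits), with DESeq2 (3.65, adjusted p = 0.115) and among female libraries (3.24, adjusted p = 0.15). Nor was it kept in the edgeR fit of every gene with at least 1 count (3.65, edgeR adjusted p = 0.0981). The Y-linked covariate (3.35, edgeR adjusted p = 0.42) and leaving out control 6 and mutant 5 (3.42, edgeR adjusted p = 0.057) also removed it. Female controls 4 and 5 were at 0 and 3.88 CPM.

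Npy1r, the postsynaptic Y1 receptor gene, depended on control 6. Controls 1 to 5 spanned 1.19 to 10.1 CPM, control 6 stood at 37.4 CPM, and mutants 1 to 5 had 18.5, 19.5, 11.5, 17.0 and 17.0 CPM, above those 5 controls and below control 6. With every library the log2 fold change was 0.56 (95% interval -0.64 to 1.75, edgeR adjusted p = 0.689). Without control 6 it was 1.45 (edgeR adjusted p = 0.0485), and among female libraries 1.08 (adjusted p = 0.206). Npy5r, which lies beside Npy1r on chromosome 8, was 0 to 1.57 CPM in the controls and 0 to 3.53 CPM in the mutants, with the highest value in mutant 1 and means of 1.03 and 1.01 CPM. Per length, Npy2r made up 0% to 33.8% of the summed level of the 3 receptors in the control libraries, and 34.4% to 66.5% in mutant libraries.

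The ligands of these receptors, which are not members, rose in the same libraries: Sst from 93.4 ± 28.03 to 660 ± 107 CPM and Npy from 214 ± 63.7 to 1405 ± 234 CPM (SD, n = 6 and 5; log2 fold changes 2.82 and 2.72). So did the markers of interneurons from the medial ganglionic eminence (MGE) as a list, with 7 of 11 tested genes higher and 1 lower; Sst and Npy are themselves on that list, and Sox6, Chodl and Nos1 were among the higher ones. The 12 genes of that list summed to 443 to 717 CPM in the controls and 2785 to 3994 CPM in the mutants. Pvalb had at most 3 counts in any library. In bulk samples a change in the number of cells of a type and a change in RNA per cell cannot be told apart, and the part of cell composition in the rise of Sstr2, Npy2r and Trhde was not tested.

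Oprl1 (chromosome 2, 181715016 to 181720985), which encodes the nociceptin receptor, was the only opioid receptor gene above a mean of 5 CPM. The controls spanned 77.7 to 124 CPM with a median of 83.9, and mutants 1 to 5 had 142, 152, 165, 103 and 162 CPM. Control 6 and mutant 4 overlapped, with mutant 4 above the 5 other controls. Means were 90.8 ± 17.4 CPM (SD, n = 6) and 145 ± 25.1 CPM (SD, n = 5), a log2 fold change of 0.67 (SE 0.151, edgeR adjusted p = 0.0208). The call was lost without control 4 or mutant 3 (0.62 to 0.78 over the 11 fits) and among female libraries (0.85, adjusted p = 0.0768). Pnoc, its ligand's gene, did not pass, as given above.

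Oprm1, the mu opioid receptor gene and a marker of striatal striosomes, spanned 1.26 to 7.49 CPM in the controls and 1.498 to 6.55 CPM in the mutants, with means of 3.87 and 2.97 CPM (-0.38, 95% interval -1.49 to 0.72, edgeR adjusted p = 0.78). Some of its exonic bases also belong to Ipcef1 in antisense orientation, which leaves this level uncertain. Oprk1 and Oprd1, the kappa and delta receptor genes, were under the filter, with 32 and 17 counts over all controls and 17 and 14 over all mutants. Oprl1 held 96.3% to 98.8% of the summed per-length level of the 4 opioid receptors in the control libraries, and 98.1% to 99.3% in mutant libraries. Among the opioid ligand genes that are not members, Penk was at 71.4 ± 41.8 and 34.5 ± 10.4 CPM and Pdyn at 12.8 ± 6.93 and 13.5 ± 4.33 CPM in controls and mutants (SD, n = 6 and 5), and neither passed the test. Tac1, the gene of substance P and neurokinin A, was at 9.70 ± 4.89 and 5.83 ± 2.76 CPM and did not pass either.

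**Figure D3:**
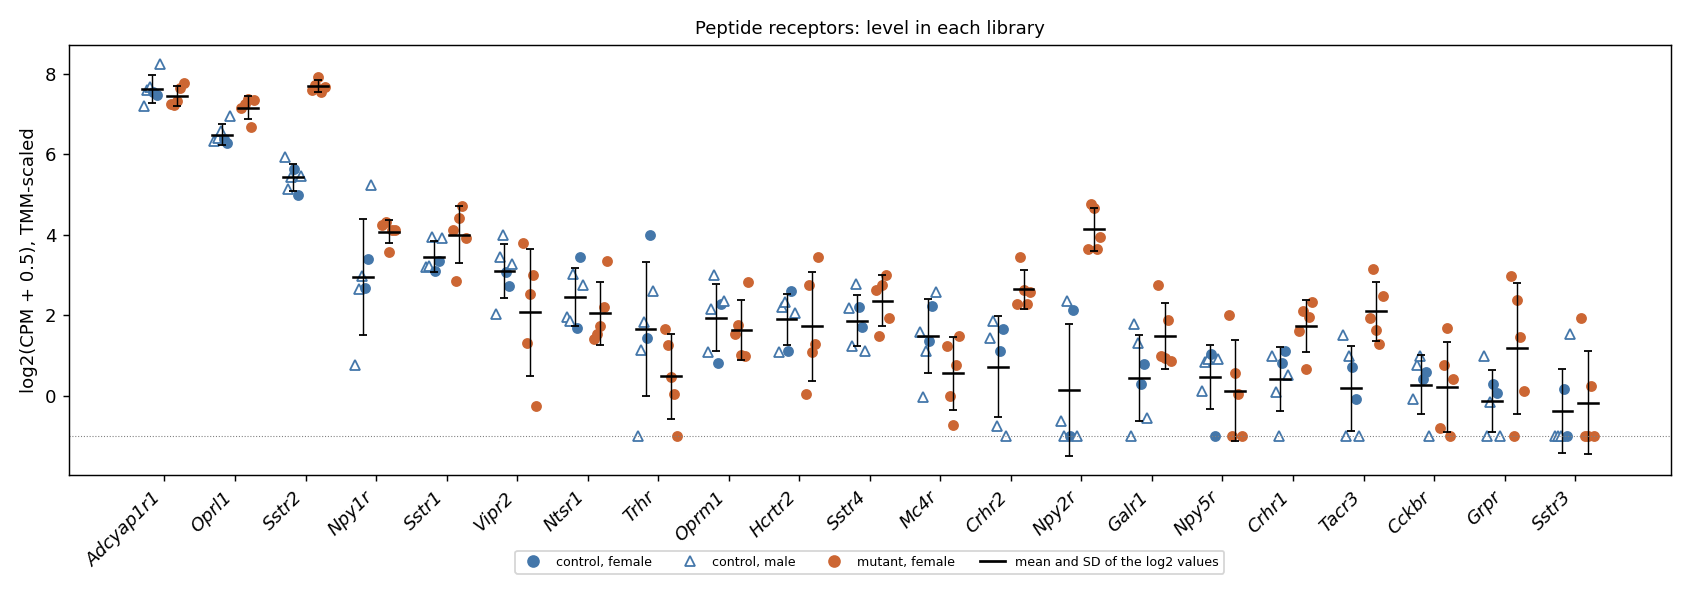
Level of the 21 tested receptors in each library, as log2(CPM + 0.5) on the vertical axis, with symbols as in the plot of precursor levels. Sstr2 and Npy2r show all mutants above all controls, as does Crhr2 at a lower level, and control 6 stands apart for Npy1r and Adcyap1r1.

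Adcyap1r1, the gene of the PACAP receptor PAC1, had the highest mean level per length of all members in the controls and did not pass the test. The controls spanned 147 to 302 CPM with a median of 190 and with control 6 highest, and mutants 1 to 5 had 151.1, 150.1, 160, 201 and 217 CPM (log2 fold change -0.20, 95% interval -0.56 to 0.16, edgeR adjusted p = 0.613). Vipr2, a receptor gene for VIP and PACAP, had 13.4, 2.00, 5.24, 7.49 and 0.332 CPM in mutants 1 to 5, and spanned 3.56 to 15.4 CPM with a median of 8.58 in the controls (-0.62, edgeR adjusted p = 0.677). Vipr1 had 1 count in all 11 libraries together. Transcripts of the PACAP receptor were thus found at a high level in all 11 libraries, and those of the PACAP gene itself in 1.

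Low receptor genes showed differences that missed the threshold. For Crhr2, a CRH receptor gene, all mutants (4.35 to 10.5 CPM) lay above all controls (0 to 3.13 CPM), with means of 6.07 and 1.63 CPM, yet the log2 fold change of 1.89 (SE 0.72) had an edgeR adjusted p of 0.185. Crhr1, the other CRH receptor gene, spanned 0 to 1.66 CPM in the controls and 1.09 to 4.56 CPM in the mutants, with means of 0.981 and 3.07 CPM (1.66, SE 0.669, edgeR adjusted p = 0.218). Tacr3, the neurokinin B receptor gene, spanned 0 to 2.37 CPM and 1.95 to 8.40 CPM, with means of 0.907 and 4.26 CPM (2.26, SE 0.849, edgeR adjusted p = 0.177). Of the tested members 4, Trhde, Sstr2, Npy2r and Crhr2, had groups of libraries that did not overlap, each with the mutants higher, against 4.67% of all genes tested (2.74% with the mutants higher).

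The remaining receptors overlapped between the groups. Grpr, the gastrin-releasing peptide receptor gene and the only member on the X chromosome, was 0 to 1.48 CPM in the controls and 7.37, 0, 4.69, 2.25 and 0.581 CPM in mutants 1 to 5, with means of 0.527 and 2.98 CPM (2.54, SE 1.09, edgeR adjusted p = 0.249). Mc4r, a melanocortin receptor gene, was 0.482 to 5.44 CPM and 0.109 to 2.32 CPM, with means of 2.74 and 1.19 CPM (-1.17, edgeR adjusted p = 0.433). Hcrtr2, an orexin receptor gene, was 1.63 to 5.54 CPM and 0.537 to 10.5 CPM, with mutant 5 highest and means of 3.53 and 4.15 CPM. Cckbr, a cholecystokinin receptor gene, was at most 1.48 CPM in the controls (mean 0.827) and 2.73 CPM in the mutants (mean 0.967). Under the filter, Hcrtr1 had at most 12 counts in any library and Cckar at most 6.

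Compared per length, with CPM divided by kb of merged exon, the order of the members differed between the groups. In the controls Adcyap1r1 (30.6 ± 7.98 CPM per kb), Oprl1 (24.2 ± 4.65) and Sstr2 (20.4 ± 4.91) led, and neighbours in this order differed by less than the larger of their SDs. Scg2, Nts, Pnoc and Sstr1 followed at 10.1, 8.29, 7.53 and 5.29 CPM per kb, again with neighbours within the larger SD. In the mutants Sstr2 led at 96.5 ± 10.3 CPM per kb, apart from Oprl1 at 38.5 ± 6.69, Adcyap1r1 at 26.6 ± 4.72 and Scg2 at 20.4 ± 3.52. Nts went from place 5 to place 11 of 41, Gal from 8 to 21, and Trhde and Npy2r reached 6.51 and 5.35 CPM per kb from 0.389 and 0.426.

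**Figure D4:**
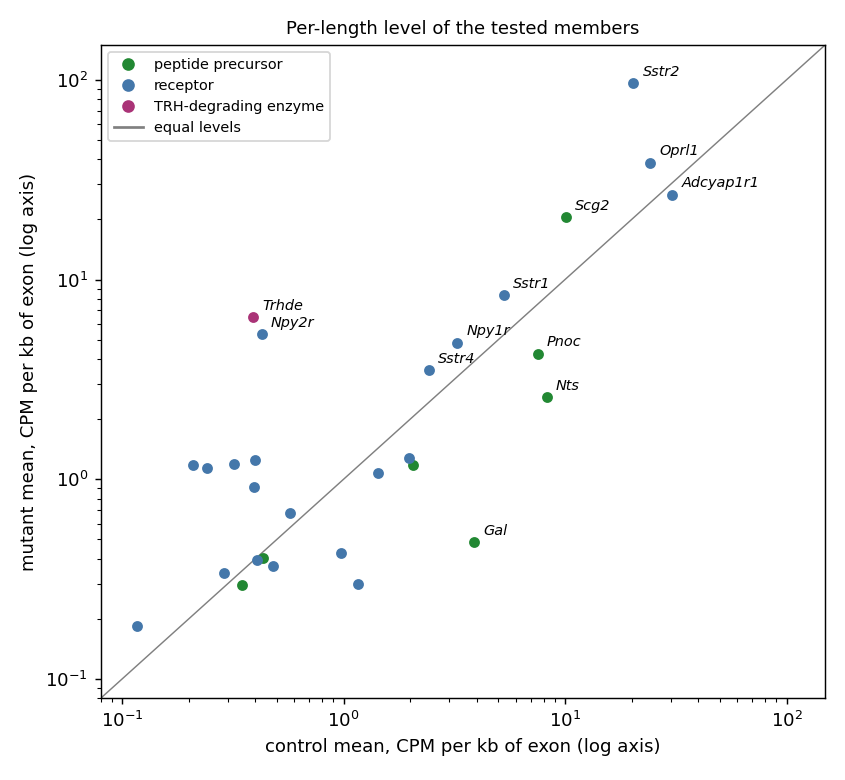
Mean level of each of the 29 tested members per kb of merged exon, controls on the horizontal and mutants on the vertical axis, both log axes; the line marks equal levels. Points of precursors are green, receptors blue and Trhde purple; Trhde and Npy2r lie farthest above the line and Gal farthest below it, and Sstr2 is highest on the mutant axis.

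Genes that make, store and release peptides mostly did not pass the test. Of 21 processing and dense-core vesicle genes, 2 rose, none fell and 19 did not pass (median log2 fold change 0.13). Pam, whose enzyme amidates the ends of many peptides, rose from 87.2 ± 12.7 to 143 ± 21.6 CPM (log2 fold change 0.71, edgeR adjusted p = 0.0056), and the granin gene Chgb from 51.7 ± 12.95 to 96.7 ± 19.4 CPM (0.90, edgeR adjusted p = 0.0127; SD, n = 6 and 5). Of 13 tested peptide-degrading enzymes other than Trhde, Ece1 fell (-0.78, edgeR adjusted p = 0.0234) and 12 did not pass (median 0.13).

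Of 13 other tested precursors, Sst, Npy and Nppc, the last encoding C-type natriuretic peptide, rose and 10 did not pass (median 0.062). Among 26 other tested genes of receptors and receptor-associated proteins, Ramp1 being one of the latter, 3 rose and 3 fell (median -0.011). Pth2r rose from 3.40 ± 2.75 to 48.2 ± 12.6 CPM and Tacr1, the substance P receptor gene, from 6.34 ± 1.68 to 26.3 ± 11.4 CPM (SD, n = 6 and 5; log2 fold changes 3.77 and 2.05), while Gpr37l1 and Ramp1 fell (-1.76 and -1.07). Of 31 genes of G proteins, adenylyl cyclases and RGS proteins, Adcy8 rose and Gnal, Rgs2 and Rgs16 fell (2.24, -1.56, -1.46 and -0.63; median of the list -0.0098). Each list was written with earlier results of these data known, and its counts stand beside 2.52% and 1.62% of all genes called higher and lower.

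Other cell type markers were counted in the same libraries. Of 12 striatal projection neuron genes 6 fell and 1 rose, with the list's sum at 685 to 1992 CPM in the controls and 341 to 525.5 CPM in the mutants, beside the fall of Nts; the part of striatal cells in it was not tested. Of 12 CGE interneuron genes, Calb2 rose and Prox1 fell; Gad2 of the GABAergic list rose; of 7 tested glutamatergic genes, Neurod1 rose; and of 6 oligodendrocyte precursor genes, Gpr17 fell. No tested gene of the striosome (6), radial glia and astrocyte (8), microglia (6), vascular (5), choroid plexus and ependymal (4), erythrocyte (3) or hypothalamic (1) lists passed. Choroid plexus and ependymal genes summed to 214 CPM in mutant 5, with Ttr leading, and to at most 13.4 CPM in any control.

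**Figure D5:**
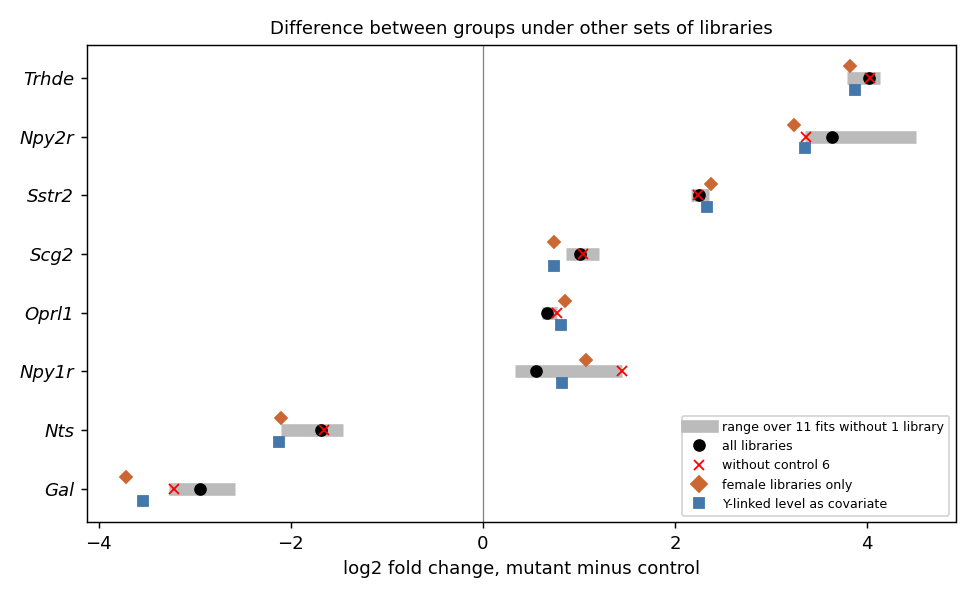
Log2 fold change (mutant minus control, horizontal axis) of the 6 called members, Gal and Npy1r, with all libraries (black), without control 6 (red cross), among female libraries (orange) and with the Y-linked level as a covariate (blue); grey bars span the 11 fits without 1 library. Signs were kept for these 8 genes in all of these fits, Sstr2 and Trhde moved little, and Npy1r moved most when control 6 was left out.

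Among female libraries 3 members were called, Sstr2, Trhde and Gal, where 1.35% of genes were called. With the Y-linked level as a covariate Sstr2 and Trhde were called (2.34 and 3.87, adjusted p = 0.000525 and 0.0129), where 1.09% of genes were. DESeq2 called 6 members, with Gal in place of Npy2r, beside 7.45% of genes, and limma-voom called the 6 members of the edgeR test beside 4.23%. A fit with the replicate number as a block, which leaves out control 6, called 5 members beside 2.59% of genes.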

How the data were processed

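The authors deposited 1 table of unnormalised counts, with a row for each Ensembl gene and a column for each of 6 control and 5 mutant libraries. Per the submitters' processing notes, TopHat2 2.0.13 and featureCounts 1.4.6 were used with GRCm38 (mm10). Which annotation release was counted, and how strand and multiply aligned reads were treated, is not given in the sources used here. Libraries were grouped by genotype in the titles. Symbols and coordinates came from GENCODE M21 (GRCm38) and matched 37607 of 39179 identifiers.

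Genes with a mean of at least 0.5 CPM by library totals entered edgeR's robust quasi-likelihood test (version 4.0.16, R 4.3.3, TMM factors) with Benjamini-Hochberg adjustment over all 15227 genes, at 0.05. CPM in the text is TMM-scaled, except for the filter and the values set beside it in the opening, which use library totals. No 2 libraries of a group were alike within sampling noise (lowest chi-square divided by its degrees of freedom 13.7). Alternatives were RLE, upper quartile and no factors, other filters and thresholds, a fit without robust estimation, DESeq2 1.42.0, limma-voom 3.58.1, leaving out libraries, a replicate block and the sex of the libraries. Members past the threshold or above a mean of 5 CPM are given by library, the others by mean and range or by counts; of each other list at most 4 called genes, or 2 of the highest where none passed, could be named. The members and lists were chosen with earlier results of these data known.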

Additional observations from a re-analysis of the deposited data

Results flagged for a closer look

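Dixon's test at 95% was applied to the CPM of 58 sets of values, 29 tested members in each group. In 11 of them 1 library stood apart from the others of its group. For normally distributed values chance gives about 1 in 20. Several of these sets hold low counts with zeros, so that rate need not hold here.

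Control 6 stood apart for Npy1r, at 37.4 CPM against 1.19 to 10.1 CPM in the other controls, for Adcyap1r1, at 302 CPM against 147 to 204 CPM, and for Sstr3, at 2.40 CPM against 0 to 0.627 CPM. That library also had the highest control sums of the oligodendrocyte precursor (2405 CPM), striosome (203 CPM), endothelial and pericyte (46.8 CPM) and microglia (40.6 CPM) markers; the part of such cells in the values was not tested.

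Control 1 was high for Pnoc, at 34.1 CPM against 9.72 to 16.4 CPM, and had no counts (0 CPM) of Trhde, against 3.32 to 4.34 CPM in the other controls. Control 5 had 15.4 CPM of Trhr against at most 5.53 CPM elsewhere in its group.

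Among the mutants, mutant 1 was high for Sstr3 (3.30 against at most 0.674 CPM) and Npy5r (3.53 against at most 0.982 CPM). Mutant 2 was high for Crhr2 (10.5 against 4.35 to 5.67 CPM). Mutant 5 was high for Oprm1 (6.55 against 1.498 to 2.90 CPM) and Ntsr1 (9.62 against 2.15 to 4.12 CPM).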

How the results depend on the processing

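Of 689 member values under the alternatives, 613 kept their sign and their side of the threshold, 39 lost and 6 gained a call, and 31 changed sign, none of them a value of a called member. The number of genes called was 630, and 279 and 971 at thresholds of 0.01 and 0.1, 1134 with DESeq2, 395 with the replicate block, 205 among female libraries, 166 with the Y-linked covariate and 392 to 634 without 1 library. The members called were 6, and 2 at a threshold of 0.01, 3 among female libraries, 2 with the Y-linked covariate and 2 to 7 without 1 library; without mutant 3 or control 4 they were Sstr2 and Trhde. Replicate numbers are shared by the titles, but same-numbered libraries did not deviate together (r from -0.14 to 0.0233 over 5 pairs), so the replicate block, which called 5 members, rests on a shared number only. It kept Sstr2, Trhde, Oprl1 and Npy2r, added Gal (-3.19, adjusted p = 0.0484) and did not call Scg2 or Nts (adjusted p = 0.0811 and 0.0662). The block fit also leaves out control 6, whose number no mutant shares. Without control 6 and with no block, Gal was already called and Nts was not (edgeR adjusted p = 0.00803 and 0.0529). Scg2 was called in that fit (edgeR adjusted p = 0.0379).

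Signs changed for 6 uncalled members. Cck was at -0.088 with all libraries, 0.30 with limma-voom, 0.36 with the replicate block, 0.29 among female libraries, 0.16 with the Y-linked covariate, 0.13 without control 6 and mutant 5 and -0.52 to 0.43 without 1 library. Npy5r (-0.038) was at 0.36 both among female libraries and with the covariate, 0.37 without control 6 and mutant 5 and -1.46 to 0.27 without 1 library. Cckbr (0.19) was at -0.70 with limma-voom, -0.84 with the replicate block, -0.042 without control 6 and mutant 5 and -0.67 to 0.52 without 1 library. Hcrtr2 (0.23) was at -0.41 with limma-voom, -0.18 with the replicate block, -0.46 without control 6 and mutant 5 and -0.47 to 0.52 without 1 library. Oprm1 was at 0.11 among female libraries and 0.12 with the covariate, and Sstr3 at -1.45 to 2.56 without 1 library. The cause was not tested. For members of a few CPM the depth limits what can be seen.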
